A study of Mus musculus with 3 samples.

Results

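Smooth muscle cells and other mural cells, the cells that wrap vessels or form muscle layers, were examined among single cells of the mouse small intestine. They were 385 of 22534 analysed cells in 3 libraries, chosen by the UMI counts of marker genes, so those genes are a description and not a finding. A cell was a member if its UMIs (counted RNA molecules) of Acta2, Myh11 and Tagln summed to at least 20, or if it held at least 5 UMIs of Rgs5 and at least 1 of Pdgfrb. It also had to hold no UMI of Prox1, Ptprc or Epcam and at most 1 of Wnt5a. Members with at least 3 Myh11 UMIs were called smooth muscle cells (260 cells). Members with at least 5 Rgs5 UMIs and fewer Myh11 UMIs than that were set apart as the pericyte class (94 cells), and 31 members fell in neither class. Each library was 1 pool of 4 wild-type C57Bl/6 females aged 9 to 10 weeks. The small intestine without its duodenum was stripped of epithelium with EDTA and DTT and digested for 60 min at 37 °C with Liberase TL and DNase I. Live CD45-, CD31+, PDPN+ cells were sorted, a gate for lymphatic endothelium, and sequenced with droplet 3′ v3 chemistry. The libraries form 1 group with no treated or control arm, and no label states that the pools were of different animals. P-values here measure how the difference between classes varies from library to library, which may be technical. That spread is partly shared across genes.

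Smooth muscle shortens when calcium activates myosin light chain kinase (Mylk), and myosin then pulls on smooth muscle actins (Acta2, Actg2) anchored to desmin (Des) filaments. The coactivator myocardin (Myocd) drives these genes together with serum response factor, which binds the CArG box of many muscle promoters. In the gut, smooth muscle forms the outer muscle coat, the muscularis mucosae, strands inside villi that run beside the lacteal, and the walls of vessels. Pericytes are the mural cells of capillaries and small venules. They are commonly recognised by Rgs5, Pdgfrb, Notch3, Cspg4, Kcnj8 and Abcc9.

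The 3 libraries held 6359, 6707 and 9468 analysed cells with medians of 7979, 7264 and 6698 UMIs per cell. Members were 42, 221 and 122 of these cells, or 0.660%, 3.30% and 1.29% (exact 95% binomial intervals 0.476 to 0.892, 2.88 to 3.75 and 1.07 to 1.54, which cover counting error only). The mean share was 1.75% ± 1.38 (SD, n = 3), and the intervals of the 3 libraries did not overlap. Without library 2 the mean was 0.975%. Smooth muscle cells were 0.487%, 2.16% and 0.887% of the analysed cells. The sort was set for CD31 and podoplanin, so these shares are not shares of the tissue. Pairs of libraries shared 13 to 23 barcodes of analysed cells, none of them a member's in both libraries, and doublets were not removed. Library 3 stood apart in the endothelial RNA of its smooth muscle cells. There 38 of 84 smooth muscle cells held at least 3 UMIs summed over Mmrn1, Flt4, Lyve1, Pecam1, Cdh5 and Tie1, against 2 of 31 in library 1 and 19 of 145 in library 2. Over the 6 markers of endothelium in general, all detected, the summed level in smooth muscle cells ranged from 201 to 1977 CPM across libraries (CPM is the UMI count of a gene scaled to the same total for each class and library), highest in library 3. It ranged from 40.5 to 92.4 CPM once those 59 cells were left out. Pecam1, Cdh5 and Tie1 are in both gene sets, so the cut itself lowers this sum. In the pericyte class the same 6 markers summed to 1166, 629 and 43.4 CPM in libraries 1, 2 and 3, so library 3 was the lowest there. The part of endothelial RNA in the results was not tested. Values with and without the cells that held it are given where that changes a call. Over the lymphatic markers the summed level in smooth muscle cells was 196 to 340 CPM, against 16699 to 19469 CPM in Prox1-positive lymphatic cells, and Mmrn1 was listed at 0 in both.

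**Figure D1:**
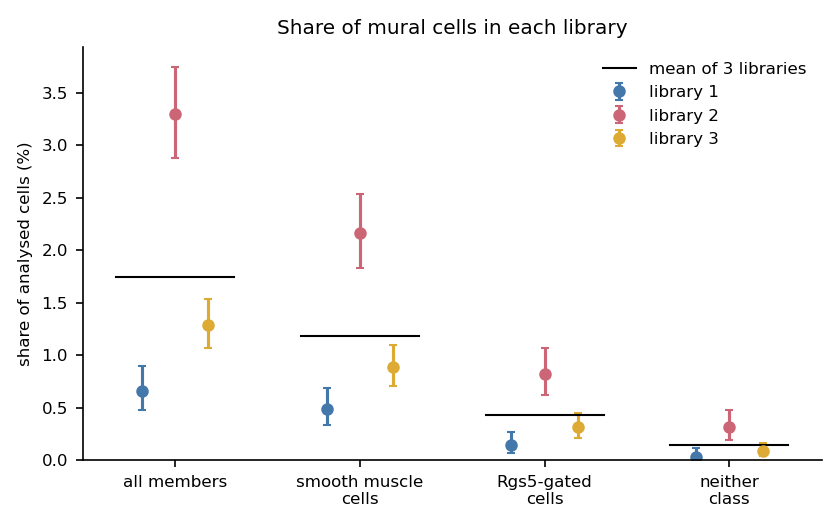
Share of analysed cells (y axis, %) in each class of mural cells (x axis) for the 3 libraries; points are libraries, bars are exact 95% binomial intervals and black lines are means. Library 2 held the highest share of every class and library 1 the lowest.

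The smooth muscle label held on contractile genes that the rule did not use. Actg2, the gamma actin of enteric smooth muscle, stood at 6426, 5873 and 1854 CPM in smooth muscle cells of libraries 1, 2 and 3, against 9.04, 12.6 and 21.7 CPM in the Rgs5 class. Des stood at 4400, 3969 and 1614 CPM against 154, 164 and 143 CPM. Cnn1 (calponin), which binds actin filaments, stood at 1436, 1666 and 809 CPM, with 1 UMI in all Rgs5-class cells together. Mylk, the kinase that starts contraction, stood at 5594, 5632 and 2947 CPM against 181, 212 and 234 CPM. Myocd was lower in level, at 126, 117 and 97.7 CPM, against 18.1, 8.41 and 0 CPM. For each of these genes every smooth muscle library lay above every library of the Rgs5 class, a description given without the share over all genes. Library 3 was the lowest of the 3 smooth muscle libraries for each. A Des UMI was found in 81.2% of the 260 cells, and 69 (6, 49 and 14 by library) held at least 20. A sub-group of 57 deep cells described below (8, 40 and 9 by library) had the highest Actg2 and Des, so these class sums depend on its share. RNA of fibroblast marker genes was present in this class too, and its source was not tested. Of the 260 smooth muscle cells, 115 (15, 59 and 41 by library) held at least 20 UMIs of the fibroblast matrix gene Dcn. All 6 fibroblast markers summed to 5729 to 6601 CPM in smooth muscle cells, against 18839 to 28671 CPM in the Rgs5 class and 28154 to 30469 CPM in fibroblasts, and their part in the results was not tested. The rule's own genes, given as a description, followed the same order: Acta2 stood at 14598, 13975 and 7807 CPM in smooth muscle cells.

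Promoters of contractile genes are shown for the CArG box they can carry (CC, a run of A or T, then GG, which reads as the same pattern on both strands). RefSeq promoter windows (GRCm38.p6) were searched over the 250 bases before each gene's start. The table held 19 of the 23 genes made up of the contractile list and the rule's 3 muscle genes, and 4 of the 19 held the box, against 1.62% of 27025 genes. None of 13 pericyte-list genes with a window held it. Capitals mark the box in the 4 stretches, which lie on mouse chromosomes as given.
Myl9, chr2:156775273-156775342, plus strand, box 161 bases before the start: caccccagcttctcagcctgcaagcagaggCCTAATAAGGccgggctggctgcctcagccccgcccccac
Myl6, chr10:128493020-128493089, minus strand, box 50 bases before the start: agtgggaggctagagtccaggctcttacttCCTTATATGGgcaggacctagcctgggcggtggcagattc
Vcl, chr14:20929148-20929210, plus strand, box 227 bases before the start: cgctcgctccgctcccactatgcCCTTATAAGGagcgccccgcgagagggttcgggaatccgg
Ldb3, chr14:34588682-34588746, minus strand, box 35 bases before the start: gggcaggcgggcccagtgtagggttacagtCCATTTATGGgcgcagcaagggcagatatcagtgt
Myl9, the regulatory light chain that Mylk phosphorylates, stood at 6432, 6496 and 3359 CPM in smooth muscle cells of the 3 libraries and at 127, 210 and 282 CPM in the Rgs5 class. Myl6, the essential light chain, stood at 9337, 9710 and 5176 CPM against 1121, 1045 and 932 CPM. Vcl (vinculin), which ties actin to adhesion sites, stood at 289, 272 and 317 CPM against 108, 98.9 and 99.7 CPM. Ldb3, a Z-disc protein of striated muscle, stood at 17.5, 24.2 and 13.7 CPM and was listed at 0 in the Rgs5 class, too low to enter the test below. The 3 tested genes did not overlap between the classes in any library, a description given without the share over all genes.

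**Figure D2:**
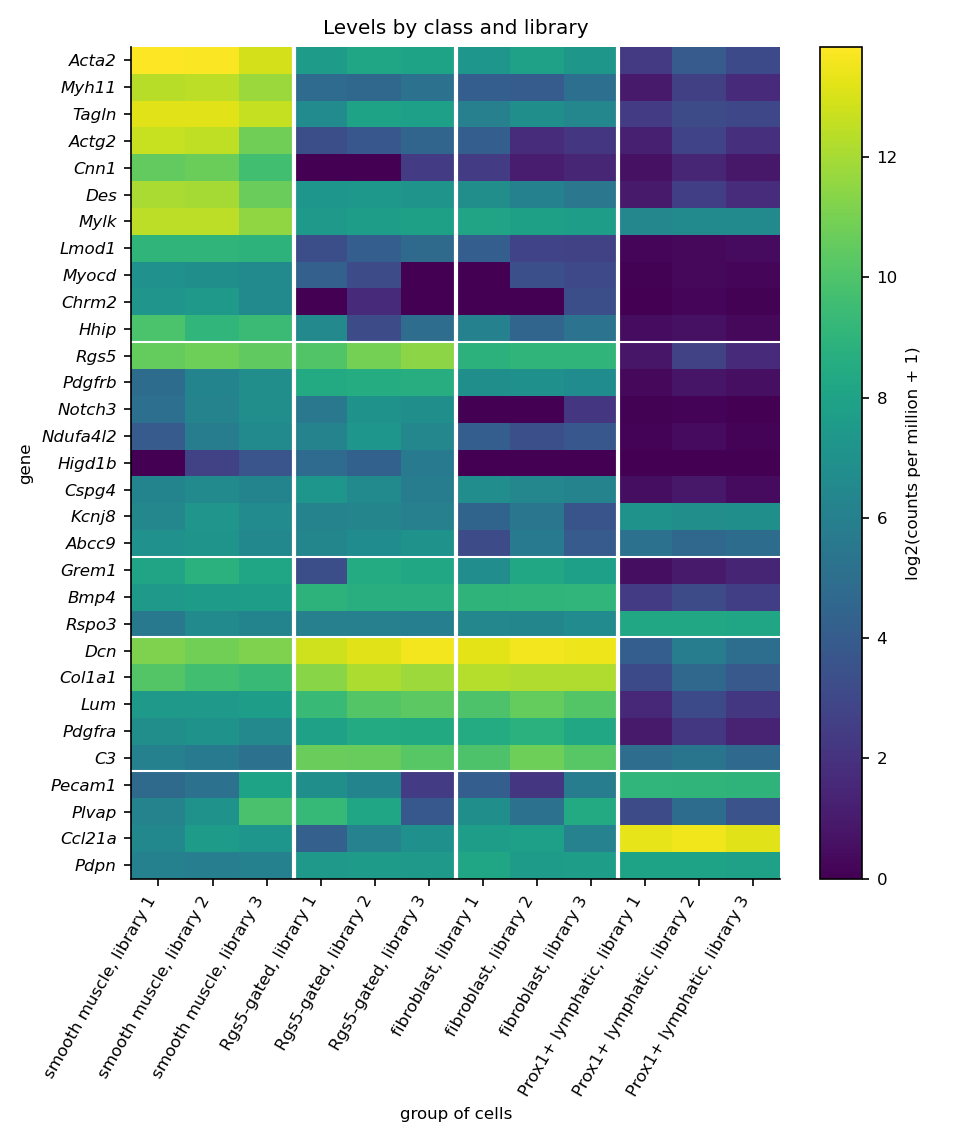
Levels of genes (rows) as log2(CPM + 1) in each class and library (columns). Contractile genes stood high in smooth muscle cells of all 3 libraries, and the Rgs5-gated columns resembled the fibroblast columns in Dcn, Col1a1, Lum and C3.

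The data went against the pericyte label for most of the 94 cells, which are therefore called Rgs5-gated cells here. Of these, 67 held at least 20 UMIs of Dcn (decorin), a matrix protein of fibroblasts, and 23 held a UMI of Notch3, the Notch receptor of mural cells. Of the 94 cells, 1 was in both sets and 5 were in neither. By library, 3 of 9, 14 of 55 and 6 of 30 cells held a Notch3 UMI. Dcn stood at 7286, 9413 and 12231 CPM in Rgs5-gated cells, against 10019, 12256 and 11540 CPM in fibroblasts, so that libraries 1 and 2 lay below the fibroblast range and library 3 inside it. Fibroblasts were defined for comparison as 176 cells that failed the positive part of the rule and held at least 20 UMIs of Col1a1, Col3a1 and Dcn together and at least 1 of Pdgfra. Rgs5 itself was not absent there: it stood at 476, 520 and 523 CPM, and 53 of the 176 held at least 5 UMIs of it. The split by Notch3 below was chosen after these values were seen and carries no test.

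The 23 Notch3-holding cells and the other 71 Rgs5-gated cells had unlike levels of pericyte genes. Rgs5 stood at 1465, 4068 and 9373 CPM in the former and at 919, 1502 and 1714 CPM in the latter. Pooled over libraries, Ebf1, a transcription factor, stood at 1633 against 42.5 CPM, and Rgs4, another regulator of G protein signalling, at 1207 against 13.7 CPM. Kcnj8 and Abcc9, the pore and the sulfonylurea subunit of the vascular ATP-sensitive potassium channel, stood at 292 against 21.2 CPM and at 381 against 44.0 CPM. In the other direction, Dcn stood at 4001, 430.0 and 160.5 CPM in the 23 cells of libraries 1, 2 and 3, against 8838, 11531 and 14116 CPM in the 71. All Dcn UMIs of the 3 such cells of library 1 were in 1 cell, which held 142 of them. C3, a complement component, stood at 451, 0 and 0 CPM against 2156, 1976 and 1373 CPM. Lum (lumican), which binds collagen fibrils, stood at 254, 22.1 and 0 CPM against 865, 1367 and 1519 CPM. Across 10366 genes, with the gate genes and Notch3 left out, the pooled log2 profile of the 71 cells without Notch3 had Pearson r = 0.946 with fibroblasts and 0.800 with smooth muscle cells. That of the 23 cells had r = 0.655 with fibroblasts and 0.697 with smooth muscle cells. With the Notch3-high smooth muscle cells described below, a group chosen by the same gene, its r was 0.759. These correlations are across genes, which are not independent replicates, and profiles of small groups hold more counting noise. Endothelial RNA also moved with Notch3: the endothelial markers summed to 3465, 2084 and 289 CPM in the 23 cells, and its part was not tested.

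**Figure D3:**
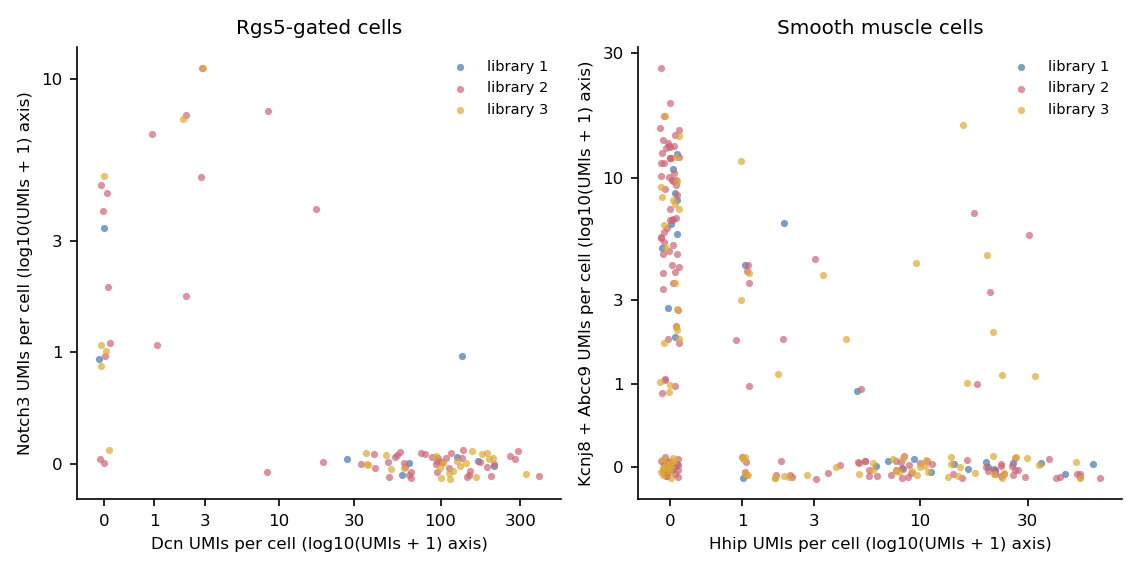
UMIs per cell on log10(UMIs + 1) axes with small random shifts, coloured by library. Left, Rgs5-gated cells by Dcn and Notch3: 1 of 94 cells held both a Notch3 UMI and at least 20 Dcn UMIs. Right, smooth muscle cells by Hhip and by Kcnj8 plus Abcc9: 8 of 260 cells held at least 3 UMIs on both axes.

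Smooth muscle cells were not uniform, and a pair of gene groups split them. At least 3 UMIs of Hhip, the decoy receptor for hedgehog ligands, were found in 108 of 260 cells (16, 53 and 39 by library). At least 3 UMIs of Kcnj8 and Abcc9 together were found in 86 cells (10, 56 and 20). Both were found in 8 cells (0, 4 and 4), and in 2 cells once those with endothelial RNA were left out. The thresholds were chosen after the cells were seen, so what follows is a description with no test. Each cell was placed once, first by Notch3 (30 cells), then by Pdgfra (25), Hhip (103) and Kcnj8 with Abcc9 (57), each at 3 UMIs, which left 45 cells. The cells of the potassium channel group were deeper, with a median of 18994 UMIs against 10283 over all smooth muscle cells, so a fixed UMI number was easier to reach there, and levels in CPM are given for that reason. Genes said to lead a group are among its highest ratios to the other smooth muscle cells, and the rest were chosen for their function.

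Actg2 and Des stood higher, pooled, in the potassium channel group than in each of the other 4 groups, where Actg2 was 606 to 2110 CPM and Des 280 to 1229 CPM. Actg2 stood at 12283, 11482 and 6087 CPM there, against 1913, 2412 and 1837 CPM in the Hhip group. Des stood at 8773, 8084 and 7925 CPM against 847, 1020 and 708 CPM. Libraries did not overlap for either gene, a description given without the share over all genes. Pcp4, a calmodulin-binding peptide, stood at 1796, 2014 and 1295 CPM and was listed at 0 in the Hhip group. The muscarinic acetylcholine receptor Chrm2 stood at 324, 398 and 636 CPM, against 0, 0 and 13.4 CPM. The galanin receptor Galr2 (pooled 282 CPM), cardiac troponin T (Tnnt2, 429 CPM), muscle creatine kinase (Ckm, 365 CPM) and the transcription factor Hand2 (206 CPM) led the same group. Grem1, a secreted BMP antagonist, stood at 521, 911 and 892 CPM there and at 0, 43.6 and 156 CPM in the Hhip group. Of the 86 cells with the channel, 57 held at least 3 Grem1 UMIs and 56 held at least 20 Des UMIs.

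The Hhip group carried other signalling genes. Hhip, which defined it, stood at 2626, 1877 and 1371 CPM. Npnt (nephronectin), a matrix ligand of integrins, stood at 1116, 836 and 690 CPM against 159, 120 and 124 CPM in the potassium channel group. Actc1, the cardiac alpha actin, stood at 369, 344 and 386 CPM, with 2 UMIs in all cells of the potassium channel group. Igf1, a growth factor, stood at 688, 670 and 652 CPM against 25.4, 11.8 and 7.75 CPM. The bradykinin receptor Bdkrb2 (331 CPM pooled) and the neuromedin U receptor Nmur2 (90.5 CPM) were among its leading genes and stood at 2.86 and 0 CPM in the potassium channel group. Dcn was higher than in the potassium channel group, at 3565, 2219 and 2143 CPM against 69.8, 111 and 271 CPM. Of the 108 Hhip-holding cells, 38 held endothelial RNA, whose part was not tested. Plvap, of blood vessel endothelium, stood at 41.9, 241 and 1237 CPM in the Hhip group.

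The 30 Notch3-high smooth muscle cells carried vascular mural genes. There were 1, 17 and 12 of them in the 3 libraries, so library 1 gives values from 1 cell. Ndufa4l2, a mitochondrial protein of pericytes and vascular muscle, stood at 318, 555 and 566 CPM, and at 0.952 CPM pooled in the potassium channel group. Ebf1 stood at 954, 1062 and 773 CPM, and Rgs5 reached 3119 CPM pooled. The neurotrophin Bdnf stood at 79.5, 214 and 374 CPM. Selp (P-selectin), an adhesion protein of activated endothelium, was listed at 0 in libraries 1 and 2 and stood at 629 CPM in library 3. Plvap stood at 967 CPM pooled, so endothelial RNA was high in this group too, and its part was not tested. Actg2 was low for smooth muscle, at 606 CPM pooled.

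The 25 Pdgfra-high cells carried BMP ligands. Bmp4 stood at 273, 479 and 638 CPM, Bmp7 at 91.0, 176 and 184 CPM and Bmp3 at 45.5, 128 and 213 CPM, while Bmp7 was listed at 0 in the Hhip, Notch3 and potassium channel groups. Kcnj8 and Abcc9 stood at 212 and 266 CPM pooled, and 17 of the 25 cells passed the potassium channel threshold as well. Actg2 stood at 1183, 1182 and 213 CPM. Pdgfra, which defined these cells, stood at 1380 CPM pooled. Tmem158, Bmp7, Rbp4 and Col4a5 were among the leading genes both of this group and of the members in neither class. The smooth muscle name of these 25 cells follows the Myh11 rule and was not tested further. The 45 remaining smooth muscle cells had pooled Dcn of 5294 CPM and were led by the interferon-induced chemokine Cxcl9, at 0, 793 and 218 CPM.

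The 31 members in neither class had entered through Acta2 and Tagln with few Myh11 and Rgs5 UMIs. Of these, 24 held at least 3 Pdgfra UMIs. Pdgfra, the receptor for PDGF-A on fibroblasts, stood at 2597, 1200 and 479 CPM there, against 297 to 462 CPM in fibroblasts. The developmental ligand Wnt4 stood at 236, 220 and 432 CPM and Bmp7 at 315, 287 and 81.8 CPM. Library 1 held 2 of these cells.

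**Figure D4:**
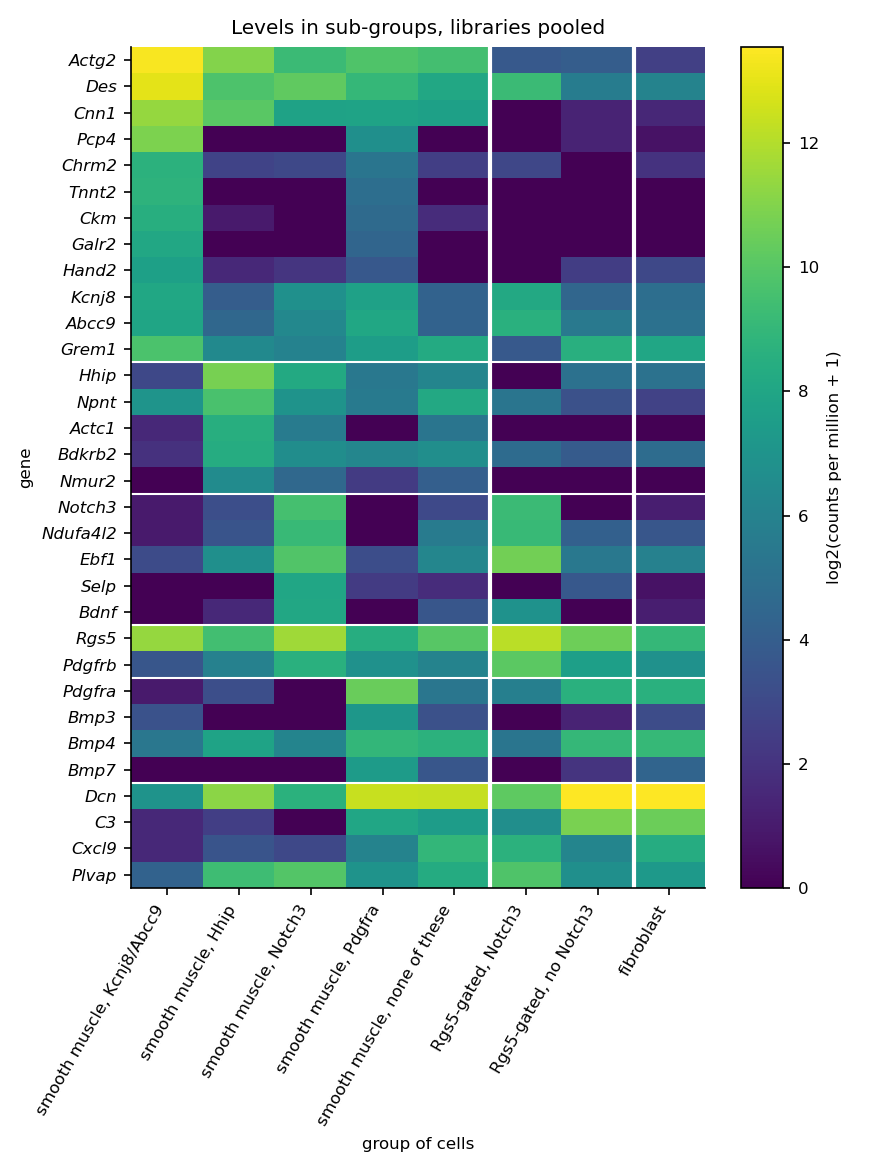
Levels of genes (rows) as log2(CPM + 1), libraries pooled, in the 5 groups of smooth muscle cells, the Rgs5-gated cells with and without Notch3, and fibroblasts (columns). Pcp4, Chrm2, Tnnt2, Ckm and Galr2 stood highest in the Kcnj8/Abcc9 group, and Hhip, Npnt and Actc1 in the Hhip group.

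Rgs5 ran through smooth muscle as well. Of 260 smooth muscle cells, 156 held at least 5 UMIs and 56 held none. The 156 were deeper, with a median of 12454.5 UMIs against 8902 in the other 104, so a fixed UMI number was easier to reach there. The split also overlaps the groups above: 66 of the 86 cells with the channel and 48 of the 108 with Hhip held at least 5 Rgs5 UMIs. Des stood at 6300, 5062 and 2047 CPM in smooth muscle cells with at least 5 Rgs5 UMIs and at 825, 1222 and 737 CPM in those with fewer. Hhip went the other way, at 210, 280 and 336 CPM against 2347, 1258 and 1389 CPM. Pdgfra stood at 17.9, 14.1 and 28.2 CPM against 294, 428 and 213 CPM. Libraries did not overlap for any of the 3 genes, whereas Myocd did overlap, at 139, 108 and 72.2 CPM against 101, 138 and 149 CPM. The share of all genes that separate in this way is not given here, so this describes the named genes only. Near the thresholds, 12 members had an Acta2, Myh11 and Tagln sum of 20 to 24 without meeting the Rgs5 part, and 16 cells missed membership at 15 to 19. Among smooth muscle cells 13 had exactly 3 Myh11 UMIs, and 20 members had 2.

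Members of all classes were then tested against fibroblasts over the 3 libraries, to see which genes set mural cells apart from their stromal neighbours. UMIs were summed per library and class and tested with edgeR's quasi-likelihood test with the library as a block. Genes of either gate were left out, and each log2 fold change is given with an approximate SE. Of 7815 genes, 13.2% were higher in members and 10.3% were higher in fibroblasts (1033 and 803 genes, Benjamini-Hochberg adjusted p under 0.05), 23.5% in all. Since gate and test read the same RNA, a gene that tracks the gate genes can pass with no separate cause. The rule also moved Rgs5- and Pdgfrb-holding cells with fibroblast genes into the members.

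All 19 tested contractile genes were higher in members, with a median log2 fold change of 3.10, against 0.02 over all genes tested. Actg2 was higher by 9.40 ± 0.27 (edgeR adjusted p = 1.25e-13), and Des by 5.16 ± 0.17 (edgeR adjusted p = 4.24e-13). Cnn1 had 4229 UMIs in members and 3 in fibroblasts, a 563-fold ratio of CPM (counting interval 192 to 2730). Among ion channel and calcium genes 12 of 14 were higher, with a median of 2.21 that did not change with the gene at 0 set to its bound. Pln (phospholamban), which restrains the calcium pump of the sarcoplasmic reticulum, had 262 UMIs in members and 0 in fibroblasts, at least 34.9-fold higher (edgeR adjusted p = 1.81e-07). Ano1, a calcium-activated chloride channel that also marks interstitial cells of Cajal, had 111 UMIs and 0, at least 14.8-fold higher (edgeR adjusted p = 1.89e-05). The 6 markers of those interstitial cells summed to 102 to 175 CPM in smooth muscle cells and 212 to 264 CPM in fibroblasts, with Kit at 0 in Rgs5-gated cells and Ano1 at 0 in fibroblasts. Kcnj8 was higher by 2.13 ± 0.24 and Abcc9 by 2.02 ± 0.27 (edgeR adjusted p = 3.31e-06 and 2.17e-05). Kcnj8 was as high in Prox1-positive lymphatic cells, at 113 to 136 CPM, as in smooth muscle cells, at 84.7 to 149 CPM, while Abcc9 was lower there, at 24.2 to 35.2 CPM against 86.1 to 142 CPM.

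Of 12 tested pericyte genes, 7 were higher in members, 2 were lower and 3 did not pass. Cox4i2, a subunit of cytochrome c oxidase, had 200 UMIs in members and 2 in fibroblasts, a 39.9-fold ratio (counting interval 10.9 to 332). Cygb (cytoglobin) went the other way, by -1.53 ± 0.13 (edgeR adjusted p = 1.16e-07). Cspg4, the NG2 proteoglycan often used to mark pericytes, stood at 75.9, 92.7 and 74.6 CPM in smooth muscle cells, 154, 94.7 and 56.4 CPM in Rgs5-gated cells and 109, 83.5 and 72.4 CPM in fibroblasts. Its difference between members and fibroblasts was 0.06 ± 0.18 (edgeR adjusted p = 0.862). In the Notch list 2 of 8 were higher and 1 was lower, against 13.2% and 10.3% of all tested genes. Notch3 had 339 UMIs in members and 2 in fibroblasts, a 67.7-fold ratio (counting interval 18.6 to 561). It stood at 32.1, 70.8 and 111 CPM in smooth muscle cells and at 45.2, 132 and 117 CPM in Rgs5-gated cells. Its ligand Jag1 was higher by 1.66 ± 0.34 (edgeR adjusted p = 0.00135), a call lost without library 3 (1.19, adjusted p = 0.0983). In share of cells, a Notch3 UMI was found in 9.69% of smooth muscle cells and 0.05% of lymphatic cells after thinning to 3000 UMIs (15.0% and 0.0435% unthinned). The thinned lymphatic share rests on 2000 cells drawn at random, and the median depths were 10283 and 7146 UMIs.

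Signals that surround stem cells and lymphatics were uneven. In the BMP and WNT list 2 of 16 genes were higher in members, 6 were lower and 8 did not pass. Over all tested genes 13.2% were higher and 10.3% lower. Grem1 was higher by 0.48 ± 0.16 (edgeR adjusted p = 0.0335), a call lost without any 1 library (0.36, 0.49 and 0.56 without libraries 1, 2 and 3, adjusted p = 0.137, 0.214 and 0.0914). Bmp4 was lower by -0.95 ± 0.13 (edgeR adjusted p = 2.90e-05), at 169, 193 and 218 CPM in smooth muscle cells against 514, 529 and 547 CPM in fibroblasts. Wnt4 was lower by -1.89 ± 0.20 (edgeR adjusted p = 1.05e-06), although the 31 members in neither class had it above fibroblasts. Rspo3, a WNT enhancer, did not pass (-0.28 ± 0.20, edgeR adjusted p = 0.360). It stood at 46.7, 93.3 and 74.6 CPM in smooth muscle cells, below the 295 to 303 CPM of lymphatic cells. Vascular growth and guidance genes split, with 7 of 18 higher and 6 lower.

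Chemokine and matrix genes were mostly lower in members. Of 18 chemokine and inflammatory genes, 13 were lower and 0 were higher with edgeR, also at an unadjusted p under 0.05 and with DESeq2. Cxcl13, a B cell attractant, differed most in the list, at -3.15 ± 0.36 (edgeR adjusted p = 3.08e-06). Without library 2 it was -2.05 and without library 3 it was -4.25. Cxcl12, the ligand of CXCR4, was lower by -0.76 ± 0.13 (edgeR adjusted p = 0.000215). Of 26 matrix genes 20 were lower and 3 were higher. Lum was lower by -1.60 ± 0.13 (edgeR adjusted p = 8.01e-08). Among adhesion receptors 5 of 12 were higher and 3 were lower, with the cadherin Cdh6 higher by 3.40 ± 0.56 (edgeR adjusted p = 0.000182). Of 17 transcription factors 7 were higher and 2 were lower, led by Myocd at 3.58 ± 0.33 (edgeR adjusted p = 3.36e-07). Of 9 receptors 3 were higher and 3 were lower. Chrm2, with 457 UMIs in members and 5 in fibroblasts, was higher by 5.09 ± 0.50 (edgeR adjusted p = 5.45e-07). Of 16 immediate early genes, which respond to dissociation, 1 was higher and 2 were lower. Over all tested genes 13.2% were higher and 10.3% lower, the shares against which each list count here is to be read. Fitted values that rest on few fibroblast UMIs moved when a library was left out: Notch3 to 9.10 and Chrm2 to 9.97 without library 3, and Cox4i2 to 9.06 without library 1.

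Endothelial genes also passed this test. The endothelial markers summed to 147, 66.1 and 699 CPM in fibroblasts. Library 3 was the highest there, as in smooth muscle cells, but not in Rgs5-gated cells. Of 6 markers of endothelium in general, 5 were higher in members, Pecam1 by 2.04 ± 0.28 (edgeR adjusted p = 2.61e-05) and Plvap by 1.30 ± 0.20 (edgeR adjusted p = 0.000106). With the cells that held endothelial RNA left out, Plvap was lower in members (-1.37, edgeR adjusted p = 0.00395). Pecam1 stood at 26.3, 34.3 and 255 CPM in smooth muscle cells and at 6.41, 5.23 and 7.29 CPM without those cells, against 509 to 545 CPM in lymphatic cells. Pecam1 is among the genes that chose the cells left out, so its fall follows from the cut. Pdpn, the podoplanin gene of the sort, was lower in members than in fibroblasts by -1.15 ± 0.15 (edgeR adjusted p = 2.10e-05), and stood at 67.1, 59.0 and 66.2 CPM in smooth muscle cells against 245 to 261 CPM in lymphatic cells.

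**Figure D5:**
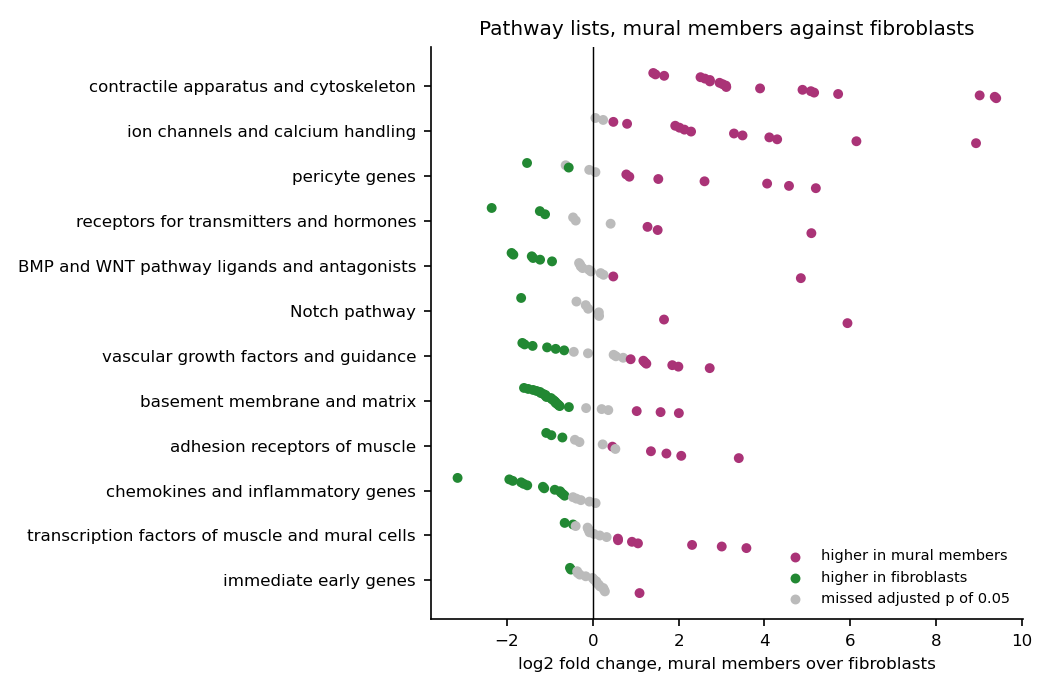
Log2 fold change of members over fibroblasts (x axis) for the tested genes of 12 pathway lists (y axis); each point is a gene, coloured by its call. All 19 contractile genes lay to the right, and 20 of 26 matrix genes and 13 of 18 chemokine genes were called to the left.

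Smooth muscle cells were finally tested against Rgs5-gated cells in libraries 2 and 3, since library 1 held 9 Rgs5-gated cells and at least 10 were required. The fit has 1 residual degree of freedom and leans on the spread shared across genes. Of 7888 genes 3.22% were higher in smooth muscle cells and 3.51% in Rgs5-gated cells (254 and 277 genes), 6.73% in all. All 19 tested contractile genes were higher in smooth muscle cells (median 3.13, against 0.02 over all tested genes), Actg2 by 8.0 ± 0.56 (edgeR adjusted p = 0.00393), Des by 4.12 ± 0.36 (0.00428) and Cnn1 by a ratio of 966 (counting interval 173 to 38145). Of 15 channel and calcium genes 6 were higher (median 1.76, the same with 2 genes at 0 set to their bounds). Casq2 (calsequestrin), the calcium store protein, had 273 UMIs and 0, at least 23.5-fold higher (edgeR adjusted p = 0.00640). Sh3bgr had 729 UMIs and 0, at least 62.8-fold higher (edgeR adjusted p = 0.00428). Of 19 transcription factors 4 were higher, among them Myocd by 4.37 ± 0.55 (edgeR adjusted p = 0.00976) and Hand1, with 80 UMIs and 0, at least 6.89-fold (edgeR adjusted p = 0.0339). Chrm2 had 405 UMIs and 1, a 105-fold ratio (counting interval 18.7 to 4144). Mcam, an adhesion protein of vessel walls, was higher by 1.91 ± 0.29 (edgeR adjusted p = 0.0176).

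Genes higher in Rgs5-gated cells included those of fibroblasts. All 6 fibroblast markers were higher there, as were 12 of 26 matrix genes and 7 of 18 chemokine and inflammatory genes. Over all tested genes 3.51% were higher in Rgs5-gated cells and 3.22% in smooth muscle cells, the shares against which each list count here is to be read. C3 differed by -5.00 ± 0.25 (edgeR adjusted p = 0.00303), the matrix protein Fbln1 by -4.91 ± 0.36 (0.00393), Lum by -2.63 ± 0.21 (0.00393) and Dcn by -2.35 ± 0.20 (0.00428). Cygb differed by -2.44 ± 0.21 (0.00436), the WNT antagonist Frzb by -3.22 ± 0.51 (0.0187), the angiotensin receptor Agtr1a by -1.92 ± 0.32 (0.0220) and Bmp4 by -1.0 ± 0.22 (0.0482). Of 14 pericyte genes 3 were higher in Rgs5-gated cells, 1 was higher in smooth muscle cells and 10 did not pass, and of 10 Notch genes 0 passed with edgeR (2 at an unadjusted p under 0.05, Jag1 and Heyl) and 0 with DESeq2. Notch3 (-0.50 ± 0.28, edgeR adjusted p = 0.388), Kcnj8 (0.85 ± 0.28, 0.149), Grem1 (0.15 ± 0.25, 0.797) and Cxcl12 (-1.11 ± 0.26, 0.0657) did not pass, which does not show that the classes are alike. Without the cells that held endothelial RNA, Kcnj8 (1.38, edgeR adjusted p = 7.39e-05), Grem1 (0.62, 0.0151) and Cxcl12 (-1.45, 8.97e-08) did pass. Plvap (1.42 ± 1.42, 0.654) took the opposite sign without library 3 (-1.71, edgeR adjusted p = 0.00884). Without library 2 the calls of Myocd, Casq2, Mcam, Agtr1a and Bmp4 were lost (adjusted p = 0.0744, 0.0503, 0.125, 0.0642 and 0.125). The fits without library 2 or library 3 took in library 1, whose 9 Rgs5-gated cells are under the minimum of 10. Next, the 67 high-Dcn cells were left out of the Rgs5-gated class, with all 3 libraries kept, and several values changed sign. That put libraries 1 and 3 under the minimum of 10 cells. The 115 smooth muscle cells with at least 20 Dcn UMIs stayed in, so the cut itself can turn genes that go with Dcn. Of the 23 Notch3-holding Rgs5-gated cells 1 was removed, so Notch3 is tied to the cut too. The values of this run only describe it. Lum became 3.18 (edgeR adjusted p = 0.025) and Dcn, which defined the cells removed, 3.30 (0.0209), both higher in smooth muscle cells. Notch3 became -2.72 (0.00452) and Kcnj8 -1.50 (0.0433), both higher in the 27 Rgs5-gated cells that remained. Grem1 became 4.91 (0.011), higher in smooth muscle cells, and all 21 Rgs5-gated cells with at least 3 Grem1 UMIs were among those removed. With DESeq2 no call was made for Casq2, Sh3bgr, Hand1, Mcam, Agtr1a and Bmp4 (adjusted p = 0.720, 0.484, 1.00, 0.0801, 0.127 and 0.176).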

How the data were processed

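UMI counts per gene and cell were deposited as 1 matrix per library. They were made with bcl2fastq 2.2 and Cell Ranger 6.1.2 on mm10, per the submitters' processing notes, with no annotation release stated there. Cells with at least 500 genes and at most 15% mitochondrial UMIs were analysed, no doublet caller was run and none were removed. Members, gene lists and sub-groups were chosen with earlier results of these data known. Raw counts were summed per library and class, at least 10 cells per sum in the reported fits, a minimum that some alternative runs did not meet. The test was the quasi-likelihood test of edgeR 4.0.16 (R 4.3.3), after filterByExpr and TMM scaling, and the library was a block, since the sums paired by it share mice and run. Benjamini-Hochberg adjustment ran over all tested genes outside the gates, standard errors were derived from the F statistic, and a class with 0 UMIs was given 3 in all to bound a fold. Simulated counts were used to check the fit. Named genes were those with the largest change in each direction in each of 12 pathway lists, among genes that passed, had 1 sign in every library and reached 20 CPM, plus a fixed set of mural and signalling genes. Genes outside this rule (the sub-group genes, and Lum, Cygb, Mcam, Pdpn, Plvap, Dcn and Fbln1 where the rule did not choose them) were named after their values were seen. Alternatives were DESeq2 1.42.0, no low-count filter, each library left out, no block, thinning to 3000 UMIs and cell subsets. Other steps used Python 3.11.15, numpy 2.4.6, scipy 1.17.1, pandas 2.3.3 and matplotlib 3.10.9. Some genes of the lists are counted but not reported by name here.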

Additional observations from a re-analysis of the deposited data

How the results depend on the processing

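Library 2 holds most members, the comparison of smooth muscle with Rgs5-gated cells rests on 2 libraries, and both classes were cut from the RNA tested. For that comparison (254 genes higher in smooth muscle cells, 277 higher in Rgs5-gated cells) the counts were 133 and 154 with DESeq2, 694 and 484 with no low-count filter, and 153 and 182 with cells thinned to 3000 UMIs. They were 938 and 848 without cells with endothelial RNA, and 403 and 462 with all 3 libraries (chosen after seeing the data). High-Dcn cells were 7 of 9, 37 of 55 and 23 of 30 Rgs5-gated cells by library. With these left out and all 3 libraries kept (also chosen after seeing the data), the counts were 177 and 160. In that run libraries 1 and 3 were both below the 10-cell minimum. Leaving out a library gave 54 to 591 and 58 to 549, lowest without library 2 and highest without library 3. Both of those fits took in library 1, whose 9 Rgs5-gated cells are under the 10-cell minimum. The fit without library 1 is the reported one. Members against fibroblasts (1033 and 803) gave 455 and 343 with DESeq2, 356 and 374 after thinning, and 482 to 1076 and 436 to 805 with a library left out. The cause of these shifts was not tested.

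Without the replicate block the counts were 244 and 302, and 757 and 612. This ended the calls of Grem1 (0.44, edgeR adjusted p = 0.412), Pecam1 (1.96, 0.0855) and Plvap (1.11, 0.287) against fibroblasts and no other call among the genes named.

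Several genes named turned sign. In smooth muscle against Rgs5-gated cells, Kcnj8 was -0.45 after thinning and -0.28 without smooth muscle cells of high Rgs5, where Grem1 was -0.75. Plvap was -1.71 to 1.42 with a library left out (lowest without library 3) and -0.21 with all 3 libraries. With the high-Dcn cells left out of the Rgs5-gated class only, a cut that can itself turn such genes, Fbln1 was 0.76, Lum 3.18, Mcam -0.49, Bmp4 2.28, Kcnj8 -1.50, Dcn 3.30 and Plvap -1.89. Against fibroblasts, Cspg4 was -0.11 to 0.10 with a library left out (lowest without library 2) and Plvap -1.37 without cells with endothelial RNA. Member shares moved by less than the spread between libraries under each alternative run.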
